A study of Mus musculus with 5 samples.

Results

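The genes described here are 10 genes of myoblast fusion and cell adhesion (Mymk, Mymx, Cdh15, Cdh2, Jam2, Jam3, Nphs1, Dock1, Dock5 and Adgrb1), found by their symbols among the 54699 genes of an RNA-sequencing table. All 10 were in the table, each once. The cells were B16F10, a pigmented mouse melanoma line, cultured with serum after infection by lentivirus. The Myod1 expression library came from cells made to express mouse Myod1, a transcription factor that starts the skeletal muscle programme, and the Pparg expression library from cells given Pparg, the nuclear receptor that drives fat cell differentiation. Both were collected on day 8, and so was their shared control, which carried the empty expression vector. The Setdb1 knockdown library came from cells with a short hairpin RNA against Setdb1, a histone methyltransferase, collected on day 7 with a control that carried the empty knockdown vector. The labels give wild type as the genotype of both controls, and do not give the promoter of the vectors or the number of hairpins. Each group had 1 library, so no difference below has a replicate check or a p-value, and intervals cover counting error only. The comparisons ask how RNA of these genes differed after each intervention. The values do not measure cell fusion itself.

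Muscle fibres form when mononucleated myoblasts recognise each other, adhere and merge their membranes. Cadherins, junctional adhesion molecules (JAMs) and nephrin-like immunoglobulin proteins act at the contact. Dock proteins activate the GTPase Rac and so remodel actin at the contact site, and the phosphatidylserine receptor Adgrb1 can signal to Rac through Elmo and Dock1. The membranes are then merged by a muscle-specific pair: Mymk (Myomaker), a multi-pass membrane protein, and Mymx (Myomixer), a small membrane protein that acts with it. Melanocytes and melanoma cells are mononucleated and are not known to use this pair.

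Myod1 binds the E-box, written CANNTG, and E-boxes near the start sites of the 2 genes below are shown because these genes stood on opposite sides of the 2-fold limit in the Myod1 expression library. RefSeq promoters (build GRCm38.p6, 250 bases before to 50 bases after the start site) matched 3 of the 10 genes: Cdh15, Dock1 and Nphs1. The motif reads the same on both strands. Capitals mark the hexamer, with 10 bases on either side, on the plus strand, and the distance is from the hexamer's first base to the RefSeq start site.
Cdh15, 236 bases upstream, chr8:122848128-122848153: gcactgatcaCATATGctgtcactca
Cdh15, 135 bases upstream, chr8:122848229-122848254: ggcccacctaCATGTGctgtcactca
Cdh15, 32 bases upstream, chr8:122848332-122848357: ccccaccacaCACGTGcagtcccttg
Cdh15, 2 bases upstream, chr8:122848362-122848387: gctccccaagCACTTGcgctgtcact
Dock1, 36 bases upstream, chr7:134670641-134670666: cgccccgtccCACATGacaccgcctc
The Cdh15 window held 4 E-boxes, the Dock1 window 1 and the Nphs1 window none. Of 32851 RefSeq promoters of this length, 72.3% held at least 1 and 6.49% held 4 or more. None of the hexamers shown is CAGCTG, found in 16.3% of the promoters, or CAGGTG on either strand, found in 20.2%. These are matches of letters and not measured binding. The RefSeq start site of Cdh15 lies 408 bases after the gene start in the expression table, and that of Dock1 33 bases after.

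The libraries held between 16214802 and 18300670 reads assigned to genes, recovered from the deposited FPKM, that is fragments per kilobase of a gene, corrected by the authors for library size. Myod1 had an FPKM of 260 in its own library and 0 reads in the other 4, and Pparg 44.4 in its own library and 0 reads in the other 4. Setdb1 had 0.867 in the knockdown library and 9.82 in its control. Summed FPKM of 7 melanocyte markers, which define the labelled cell type, was 7583 in the expression-vector control and 8222 in the knockdown-vector control, 8985 with Setdb1 knockdown, 3110 with Myod1 expression and 2195 with Pparg expression, with none of the 7 at 0. Differences are given as log2((FPKM + 1) / (FPKM + 1)), which understates changes of low genes, over the 12842 genes that reached an FPKM of 1 in 1 library or more. A gene is called higher or lower where this ratio is at least 1 in size, that is 2-fold. In the Myod1 comparison, the median of all genes shifted by -0.28 on division by the column sum and by -0.12 on scaling to the 75th percentile. The share of called genes that were higher was 65.0% as deposited, 39.4% after the first and 52.7% after the second.

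**Figure D1:**
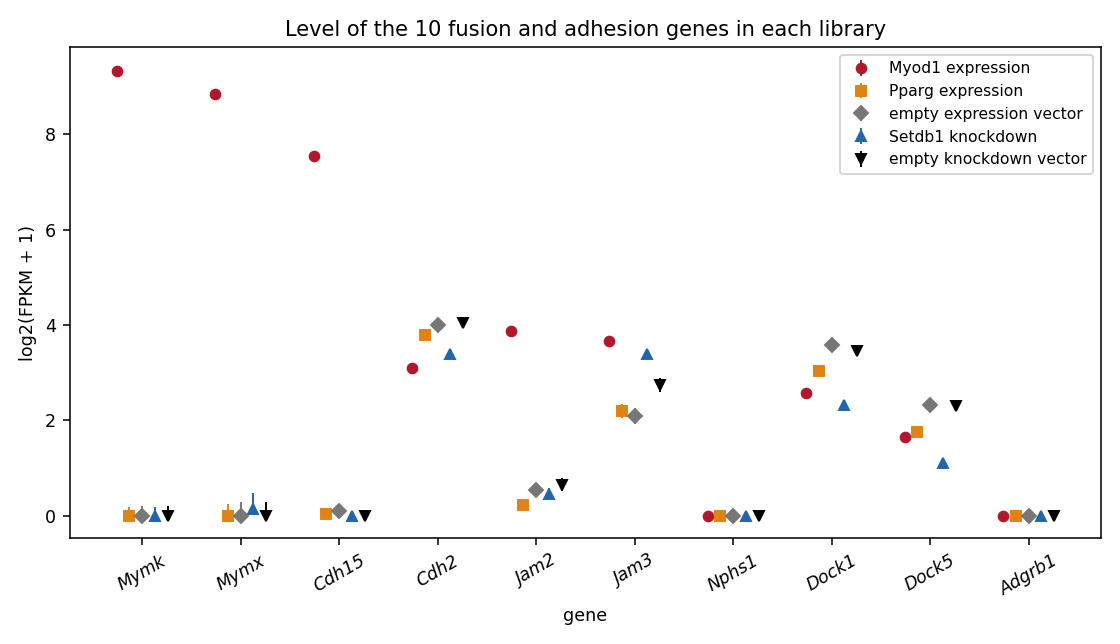
Level of each of the 10 genes, as log2(FPKM + 1), with 1 point per library and 95% Wilson counting intervals as vertical lines (mostly smaller than the points). Mymk, Mymx and Cdh15 stand above 7 on this scale in the Myod1 expression library and near 0 in the other 4, Nphs1 and Adgrb1 are at 0 in all 5, and Cdh2, Dock1 and Dock5 are highest in the 2 control libraries.

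With Myod1 expression the fusion pair Mymk and Mymx, without a read in the control, ranked among the 102 most abundant RNAs. Mymk, Mymx, Cdh15, Jam2 and Jam3 were higher and Dock1 was lower at least 2-fold, that is 5 and 1 of the 10 genes. Over all genes compared 14.0% were higher and 7.55% were lower. Mymk, Mymx, Cdh15 and Jam2 passed the filter on low values through the Myod1 expression library alone, so they could not have been compared without a difference, and their number supports nothing. Nphs1 and Adgrb1 had 0 reads in every library and were not compared. Against the knockdown-vector control 4 genes were higher (Mymk, Mymx, Cdh15 and Jam2) and none lower, since Jam3 and Dock1 did not reach the limit. Summed FPKM of 8 skeletal muscle markers (Myog, Ckm, Acta1, Myh3, Tnnt3, Des, Ttn and Chrna1) was 21178 in the Myod1 expression library and between 5.17 and 14.9 in the others, and all 8 were higher. Among them Myog and Ckm, without or almost without reads elsewhere, passed the filter through the Myod1 expression library alone, so this count supports nothing. In the same library 5 of the 7 melanocyte markers (Mitf, Tyr, Tyrp1, Dct and Pmel) were lower and none was higher. The part of these markers in the result was not tested. In bulk RNA, a gene active in more cells and more RNA per cell cannot be told apart.

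**Figure D2:**
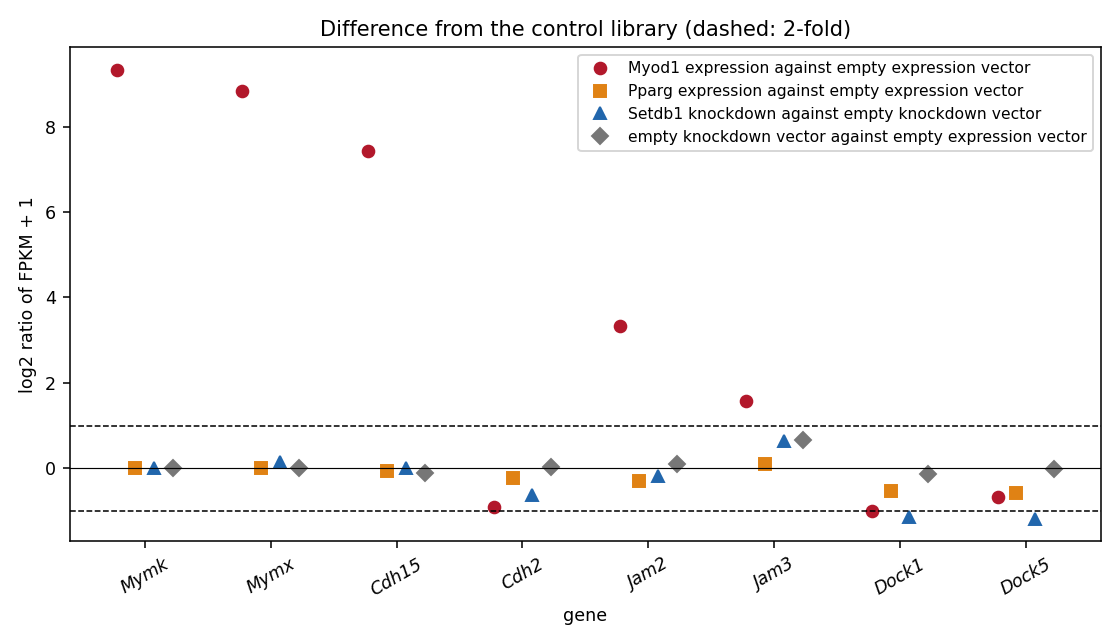
Log2 ratio of FPKM + 1 for the 8 genes with reads, 1 point per comparison, with dashed lines at 2-fold. In the Myod1 comparison 5 genes lie above the upper line and Dock1 just under the lower one, at -1.01. With Setdb1 knockdown Dock1 and Dock5 lie under the lower line, and between the 2 controls no gene passes either line.

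Mymk (ENSMUSG00000009214, chromosome 2, 27061636 to 27072179 in GRCm38, minus strand) reached 642 FPKM (95% interval 632 to 653) with Myod1 expression. It had 0 reads in the Pparg expression, Setdb1 knockdown and both control libraries, where 3 reads would have been an FPKM of 0.104 to 0.122. These 15259 reads were 0.0834% of the library, and Mymk ranked 68 among all genes by FPKM. Its level was above that of Myod1 itself in the same library (260). Set against 3 reads in the expression-vector control, it was at least 5284-fold higher, and at least 5409-fold against the other control.

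Mymx (ENSMUSG00000079471, chromosome 17, 45600971 to 45602102, minus strand) reached 458 FPKM (448 to 469) with Myod1 expression, from 7401 reads, and ranked 102. It had 0 reads with Pparg expression and in both controls, and 2 reads with Setdb1 knockdown, an FPKM of 0.105 (0.0289 to 0.384). Only the Myod1 expression library was above the level of 3 reads. It was at least 2563-fold higher than the expression-vector control. Within the Myod1 expression library the FPKM of Mymk was 1.40 times that of Mymx (1.36 to 1.44). FPKM is per length, so the levels of the pair can be set beside each other: both were present, at levels of the same order.

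With Myod1 expression the cadherins of the set stood on opposite sides of the control. Cdh15 is M-cadherin, the calcium-dependent adhesion protein of myoblasts and satellite cells, and Cdh2 is N-cadherin, made by muscle precursors, neurons and many melanomas. Cdh15 (ENSMUSG00000031962, chromosome 8, 122847966 to 122867397, plus strand) had an FPKM of 186 (182 to 190) with Myod1 expression, 0.0321 with Pparg expression and 0.0753 in the expression-vector control. It had 0 reads with Setdb1 knockdown and in the knockdown-vector control. Apart from the Myod1 expression library, with 9495 reads, no library had more than 4. The fold over the 4 reads of the expression-vector control was 2466 (963 to 9053), and it was at least 3366 over 3 reads in the other control.

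Cdh2 (ENSMUSG00000024304, chromosome 18, 16588877 to 16809246, minus strand) had an FPKM of 7.54 (7.07 to 8.03) with Myod1 expression, 12.7 with Pparg expression and 15.1 in the expression-vector control. It had 9.55 (9.07 to 10.1) with Setdb1 knockdown and 15.4 in the knockdown-vector control. The 2 controls were highest, with overlapping intervals, and the Myod1 expression library was lowest. Its FPKM there was 1.998-fold below the expression-vector control (1.85 to 2.16), at a log2 ratio of -0.91, short of the limit. That ratio was -1.26 after division by the column sum, which passes the limit. With Setdb1 knockdown it was 1.61-fold below its control (1.502 to 1.72), at -0.63.

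The dominant cadherin RNA differed between the Myod1 expression library and the others. Over 20 cadherin genes, Cdh2 made up between 73.8% and 79.4% of the summed FPKM in the other 4 libraries and 3.83% with Myod1 expression, where Cdh15 made up 94.4%. The sum itself was 197 with Myod1 expression and between 12.6 and 20.4 elsewhere. In the Myod1 expression library the FPKM of Cdh15 was 24.6 times that of Cdh2 (23.1 to 26.4). Cdh19, a cadherin of the neural crest and Schwann cell precursors, was the only other cadherin called in any comparison. Its FPKM was 1.20 with Myod1 expression, 1.86 with Pparg expression, 4.20 in the expression-vector control, 0.972 with Setdb1 knockdown and 3.16 in the knockdown-vector control. Its log2 ratio was -1.24 with Myod1 expression, and -0.92 against the other control, and it was -1.08 with Setdb1 knockdown. Of the 20 genes, 7 had 0 reads in all libraries.

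**Figure D3:**
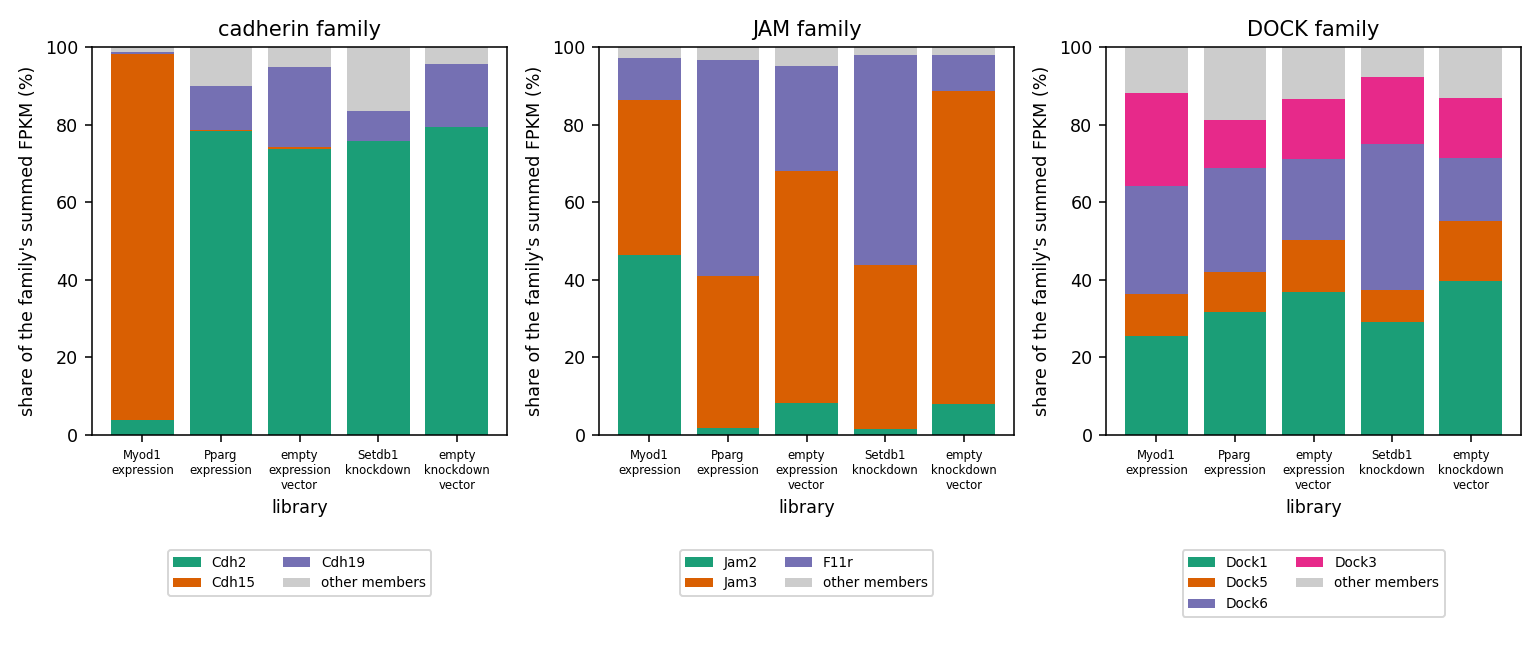
Share of each family's summed FPKM (percent) taken by its main members in each of the 5 libraries, for 20 cadherin, 7 JAM family and 10 DOCK genes, with all remaining members in grey. Cdh15 takes 94.4% of the cadherin sum with Myod1 expression, F11r takes 54.4% of the JAM family sum with Setdb1 knockdown against 9.26% in its control, and Dock1 takes between 25.5% and 39.7% of the DOCK sum in all 5.

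Jam2 (JAM-B) and Jam3 (JAM-C) are immunoglobulin-type adhesion proteins that bind each other across neighbouring cells, an interaction needed for myoblast fusion in zebrafish. Jam2 (ENSMUSG00000053062, chromosome 16, 84774123 to 84825928, plus strand) had an FPKM of 13.6 (12.9 to 14.4) with Myod1 expression, 0.173 with Pparg expression and 0.446 in the expression-vector control. It had 0.366 with Setdb1 knockdown and 0.554 in the knockdown-vector control. The Myod1 expression library was above the other 4, which had between 20 and 56 reads each. Jam2 was 30.6-fold higher than in the expression-vector control (22.6 to 42.3), at a log2 ratio of 3.34, and the ratio was 3.23 against the other control. The level with Pparg expression was below those of the other libraries, and its counting interval (0.112 to 0.267) did not overlap theirs. Its log2 ratio there was -0.30, and -1.37 with no pseudocount and values under 3 reads set to 3 reads. At 20 against 44 reads this was a 2.58-fold lower FPKM (1.49 to 4.62).

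Jam3 (ENSMUSG00000031990, chromosome 9, 27097384 to 27155421, minus strand) had an FPKM of 3.25 (2.80 to 3.78) in the expression-vector control, 11.7 (10.8 to 12.7) with Myod1 expression and 3.59 (3.14 to 4.09) with Pparg expression. It had 9.47 (8.72 to 10.3) with Setdb1 knockdown and 5.68 (5.08 to 6.36) in the knockdown-vector control. The order was Myod1 expression, Setdb1 knockdown, the knockdown-vector control, and then Pparg expression and the expression-vector control, whose intervals overlap. With Myod1 expression it was 3.61-fold higher (3.04 to 4.30) than the expression-vector control, at a log2 ratio of 1.58, and 2.06-fold higher than the knockdown-vector control, at 0.93. The 2 controls themselves differed by 1.75-fold (1.44 to 2.12), at 0.65. Of the genes compared 3.37% had a higher ratio between them, without counting genes as far below 0. With Setdb1 knockdown the ratio was likewise 0.65, a 1.67-fold higher FPKM (1.45 to 1.92), and it was 1.30 against the expression-vector control. So the size of the Jam3 difference depended on the control library in the Myod1 and Setdb1 comparisons. With Pparg expression its direction did too: the ratio was 0.11 against the expression-vector control and -0.54 against the other. An exon of Jam3 overlaps the gene Gm48796, whose FPKM was at most 0.168.

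In the JAM family the third classical member, F11r (JAM-A), an adhesion protein of epithelial and endothelial junctions, had another pattern. Its FPKM was 1.47 in the expression-vector control, 3.22 with Myod1 expression and 5.09 with Pparg expression. It was 12.2 with Setdb1 knockdown and 0.651 in the knockdown-vector control. F11r was 18.8-fold higher with Setdb1 knockdown (12.9 to 28.3) and 3.46-fold higher with Pparg expression (2.62 to 4.63). Between the controls its log2 ratio, with the pseudocount, was -0.58, from 29 and 64 reads, at 0.651 and 1.47 FPKM. The 18.8-fold is against the lower of these controls, so its size depended on the control. Jam2 and Jam3 together made up most of the JAM family FPKM with Myod1 expression, 46.4% and 40.0% of a sum of 29.3. F11r made up the largest share after Setdb1 knockdown (54.4%) and with Pparg expression (55.7%). Jam3 did so in the controls (59.96% and 80.8%).

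Dock1 and Dock5 are guanine nucleotide exchange factors for Rac, and Dock1 is required for myoblast fusion in mouse embryos. Both were lower in all 3 treated libraries than in either control. Dock1 (ENSMUSG00000058325, chromosome 7, 134670654 to 135173639, plus strand) had an FPKM of 10.95 (10.4 to 11.5) in the expression-vector control, 4.95 (4.602 to 5.32) with Myod1 expression and 7.24 (6.85 to 7.64) with Pparg expression. It had 4.01 (3.73 to 4.32) with Setdb1 knockdown and 9.98 (9.50 to 10.5) in the knockdown-vector control. The controls' intervals overlap each other and none of the treated libraries' intervals. With Myod1 expression Dock1 was 2.21-fold lower (2.03 to 2.42), at a log2 ratio of -1.01, just past the limit, and -0.88 against the knockdown-vector control, just short of it. With Setdb1 knockdown it was 2.49-fold lower (2.27 to 2.72), at -1.13, and -1.25 against the expression-vector control. With Pparg expression the ratio was -0.54, and between the controls it was -0.12.

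Dock5 (ENSMUSG00000044447, chromosome 14, 67752135 to 67933442, minus strand) had an FPKM of 3.999 (3.73 to 4.29) in the expression-vector control, 2.13 (1.93 to 2.34) with Myod1 expression and 2.35 (2.16 to 2.56) with Pparg expression. It had 1.16 (1.03 to 1.31) with Setdb1 knockdown and 3.91 (3.65 to 4.19) in the knockdown-vector control. The controls were again highest, and for Dock5 their ratio was within counting error (0.886 to 1.08), unlike that of Dock1 (0.850 to 0.977). Myod1 and Pparg expression overlapped below them, and Setdb1 knockdown was lowest. Dock5 was 3.38-fold lower with Setdb1 knockdown (2.93 to 3.90), at a log2 ratio of -1.19, and -1.21 against the other control. With Myod1 expression the ratio was -0.68 and with Pparg expression -0.58, neither past the limit. Dock1 was the more abundant of the pair in every library, with an FPKM between 2.33 times that of Dock5 (Myod1 expression) and 3.46 times (Setdb1 knockdown).

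Over 10 DOCK genes analysed, of which 7 were compared, no gene was higher in any of the 3 comparisons. With a pseudocount of 0.1, or values under 3 reads set to 3 reads, 1 was higher with Pparg expression. Of all 12842 genes 1131 and 1089 were higher under these settings. With Setdb1 knockdown 3 were lower (Dock1, Dock5 and Dock11), where 10.3% of all genes were, and the median log2 ratio was -0.62 against 0.00 for all genes. Under the settings just named 4 were lower, at medians of -1.28 and -1.31, where 2096 and 2087 of 12842 genes were. Dock11, an exchange factor for Cdc42, was at 11 reads with Setdb1 knockdown against 190 in the control, a log2 ratio of -1.07. With Myod1 expression 1 of the 7, Dock1, was lower (all genes 7.55%) and the median was -0.36. With Pparg expression none was called (all genes 4.22% higher and 2.30% lower) and the median was -0.54. The Myod1 and Pparg comparisons share their control library. Against the other control the medians were -0.26 for Myod1, -0.25 for Pparg and -0.74 for Setdb1. Between the controls none was called (all genes 1.23% higher and 1.44% lower). The median was -0.12, and all 7 lay below 0. After division by the column sum the median of these genes was -0.53 for Myod1, -0.45 for Pparg and -0.67 for Setdb1. The medians of all genes were then -0.26, 0.04 and -0.01.

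Nphs1 and Adgrb1 were not detectable at this depth, in the Myod1 expression library as in the others. Nphs1 (ENSMUSG00000006649, chromosome 7, 30458315 to 30487223, plus strand) encodes nephrin, the adhesion protein of the podocyte slit diaphragm, whose fly relatives mediate myoblast recognition. It had 0 reads in all 5 libraries, where 3 reads would be an FPKM of 0.0236 to 0.0288. Its exons overlap Nphs1os and Rps12-ps4, of which the higher reached an FPKM of 37.3. How reads in shared exons were counted is not given in the sources used here. Adgrb1 (ENSMUSG00000034730, chromosome 15, 74516195 to 74589465, plus strand) encodes BAI1, a phosphatidylserine receptor. It also had 0 reads in all 5, with 3 reads worth 0.0217 to 0.0264. Its relatives were near 0: Adgrb2 had at most 6 reads, with Pparg expression, and Adgrb3 had 18 reads with Myod1 expression and 0 elsewhere. Kirrel2, a nephrin relative, was at 0 in all 5 as well. Kirrel, a mammalian relative of the fly fusion receptors, was expressed, with an FPKM of 12.0 with Myod1 expression, 51.4 with Pparg expression, 41.7 in the expression-vector control, 10.3 with Setdb1 knockdown and 37.8 in the knockdown-vector control. It was 3.48-fold lower with Myod1 expression (3.28 to 3.69), at a log2 ratio of -1.72, and 3.69-fold lower with Setdb1 knockdown (3.47 to 3.92), at -1.79. Cd2ap, a slit diaphragm adaptor, had a log2 ratio of -1.12 with Myod1 expression, and -0.88 against the other control.

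With Pparg expression none of the 8 genes compared was called. Over all genes 4.22% were higher and 2.30% were lower in that comparison. The ratios of the 4 genes above an FPKM of 1 were 0.11 for Jam3, -0.23 for Cdh2, -0.54 for Dock1 and -0.58 for Dock5. Mymk, Mymx, Cdh15 and Jam2, at most at 0.446 FPKM in both libraries, could not be called lower with a pseudocount of 1. With Setdb1 knockdown none was higher and Dock1 and Dock5 were lower, where 9.34% of all genes were higher and 10.3% were lower. Between the 2 controls, which differ in vector and in day, none was called, and 1.23% of all genes were higher and 1.44% lower. Mymk and Mymx thus had no more than 2 reads in any library other than that with Myod1 expression.

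Beyond these genes, 4 lists of the fusion pathway hold 78 genes, of which 62 were compared. With Myod1 expression 9 were higher and 7 lower, or 14.5% and 11.3%, where 14.0% and 7.55% of all genes were, with a median log2 ratio of -0.29 (all genes 0.02). This balance depended on the scaling: 7 were higher and 13 lower after division by the column sum, and 8 and 10 after scaling to the 75th percentile. The median was -0.09 with Pparg expression, with 4 higher and none lower (all genes 4.22% and 2.30%). Against the knockdown-vector control 5 were higher and 2 lower with Pparg expression, where 709 and 310 of 12842 genes were. With Setdb1 knockdown 2 were higher and 13 lower, or 3.23% and 21.0%, where 9.34% and 10.3% of all genes were, with a median of -0.28 (all genes 0.00). No gene of the 4 lists was called between the controls, where only 1.23% of all genes were higher and 1.44% lower.

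**Figure D4:**
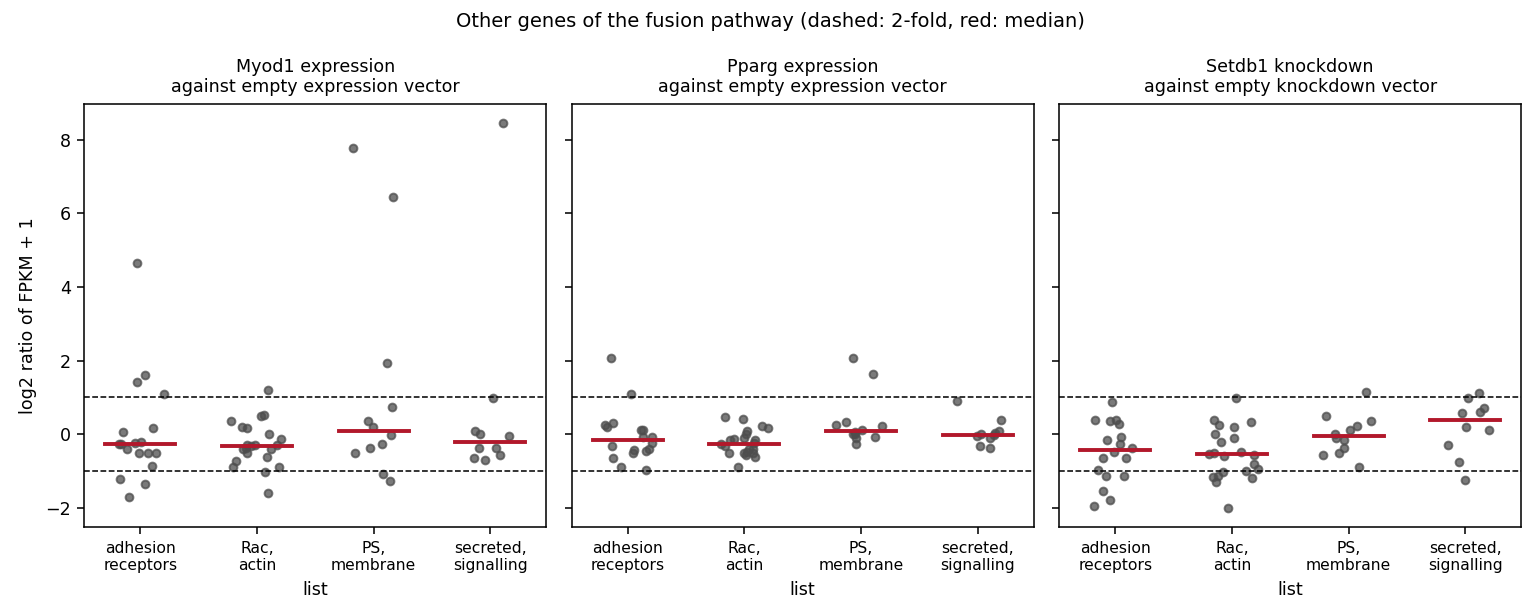
Log2 ratio of FPKM + 1 of each compared gene of 4 fusion pathway lists (adhesion and promyogenic receptors, Rac and actin remodelling, phosphatidylserine (PS) and membrane, secreted and signalling) in the 3 comparisons, with the list's median in red and dashed lines at 2-fold. A few genes stand far above the limit with Myod1 expression while the medians lie between -0.32 and 0.08, and with Setdb1 knockdown the receptor and Rac lists have medians of -0.44 and -0.55.

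Among the adhesion and promyogenic receptors (18 of 22 compared), 4 were higher and 3 lower with Myod1 expression (all genes 14.0% and 7.55%), at a median of -0.27, and after division by the column sum 3 were higher and 4 lower. Itga7, the laminin-binding integrin alpha chain of muscle, had an FPKM of 31.0 with Myod1 expression, 4.38 with Pparg expression, 0.280 in the expression-vector control, 0.361 with Setdb1 knockdown and 0.133 in the knockdown-vector control. It was 111-fold higher with Myod1 expression (80.1 to 157) and 15.7-fold higher with Pparg expression (11.2 to 22.4). Ncam1, an adhesion molecule of myoblasts and neurons, was 3.42-fold higher with Myod1 expression (3.15 to 3.73), and Cd164, a sialomucin, was 2.70-fold higher (2.58 to 2.83). Between the controls the log2 ratio of Ncam1 was -0.95 and that of Cd164 was 0.68. Against the knockdown-vector control Cd164 was at 0.73, short of the limit. The fourth, named after its values were seen, was Npnt, a ligand of integrins.

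The 3 receptor genes lower with Myod1 expression, Cd44, Itga4 and Kirrel, were also among the 5 lower with Setdb1 knockdown. Cd44, the hyaluronan receptor, had an FPKM of 23.2 with Myod1 expression, 32.3 with Pparg expression, 60.7 in the expression-vector control, 15.7 with Setdb1 knockdown and 64.5 in the knockdown-vector control. Itga4, the integrin chain that binds Vcam1, had 0.783, 1.12 and 3.14 in the first 3 of these libraries, 0.475 with Setdb1 knockdown and 3.29 in its control. Cd44, Itga4 and Kirrel had log2 ratios of -1.35, -1.22 and -1.72 with Myod1 expression. With Setdb1 knockdown they had -1.97, -1.54 and -1.79, and 5 of the 18 were lower (also Itgb1 and Tjp1, named after their values were seen), none higher, at a median of -0.44, where 10.3% of all genes were lower and 9.34% higher. With Pparg expression Itga7 and Boc (named after its values were seen) were higher, and none was lower (all genes 4.22% and 2.30%). Against the other control 1 was lower, where 310 of 12842 genes were.

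In the Rac and actin list (22 of 25 compared), which holds the partners and effectors of the Dock proteins, 7 genes were lower with Setdb1 knockdown and none higher, at a median of -0.55, against 10.3% lower and 9.34% higher over all genes. Nckap1, a subunit of the WAVE complex that is required for actin-based fusion in flies, had an FPKM of 21.6 with Myod1 expression, 36.1 with Pparg expression, 67.8 in the expression-vector control, 19.4 with Setdb1 knockdown and 81.2 in the knockdown-vector control. It was 4.19-fold lower with Setdb1 knockdown (3.97 to 4.42) and 3.14-fold lower with Myod1 expression (2.98 to 3.32). Rac1, the GTPase that Dock1 activates, had an FPKM of 34.7 with Setdb1 knockdown against 86.5 in its control, and was 2.49-fold lower (2.38 to 2.60), at a log2 ratio of -1.29, and -0.93 against the other control. The WAVE complex genes Abi1 and Wasf2 had log2 ratios of -1.18 and -1.17 there. Crkl, an adaptor upstream of Dock1, had -1.14, but -0.53 against the other control, and 0.62 between the controls. The other 2 of the 7, named after their values were seen, were Elmo2, the partner of Dock1, and Myo10. With Myod1 expression the list had 1 gene higher, Sh3pxd2a (a podosome scaffold), at 1.21. It had 2 lower, Nckap1 and Actr2 (a subunit of the Arp2/3 complex, named after its values were seen, at -0.93 against the other control), and a median of -0.32 (all genes 14.0% higher and 7.55% lower). After division by the column sum none was higher and 5 were lower. With Pparg expression none was called (all genes 4.22% and 2.30%) and the median was -0.27. Against the other control 1 was lower, where 310 of 12842 genes were.

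The phosphatidylserine and membrane list (12 of 17 compared) had 3 genes higher and 2 lower with Myod1 expression (all genes 14.0% and 7.55%), at a median of 0.08 that was -0.21 after division by the column sum. Trim72, a membrane repair protein of muscle, had an FPKM of 220 with Myod1 expression, 0.0467 with Pparg expression, 0.169 with Setdb1 knockdown and 0 reads in both controls. Cav3, the caveolin of muscle, had 86.1 with Myod1 expression and 0 reads elsewhere. Both passed the filter through that library alone. Dysf, dysferlin, a calcium sensor of membrane repair, was called higher in each comparison with the matching control: its FPKM was 15.3 with Myod1 expression, 12.4 with Pparg expression, 3.29 in the expression-vector control, 4.57 with Setdb1 knockdown and 1.501 in the knockdown-vector control. Its log2 ratios were 1.92, 1.64 and 1.16, and -0.78 between the controls. Against the expression-vector control the ratio with Setdb1 knockdown was 0.38, short of the limit. Ehd2, a caveola protein, was 4.56-fold higher with Pparg expression (4.21 to 4.94). With Dysf it made 2 of the 12 higher there, and none was lower (all genes 4.22% and 2.30%). With Setdb1 knockdown Dysf was the 1 gene higher, and none was lower (all genes 9.34% and 10.3%). The annexins Anxa5 and Anxa1, which bind phosphatidylserine, had log2 ratios of -1.28 and -1.07 with Myod1 expression.

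Of the secreted and signalling list (10 of 14 compared), Klhl41, a sarcomere-associated Kelch protein, was called with Myod1 expression: 366 FPKM from 14553 reads against 2 reads in the expression-vector control. It was the 1 gene of the 10 that was higher, and none was lower (all genes 14.0% and 7.55%), at a median of -0.22. Fst, Mstn and Igf1, secreted regulators of muscle growth, had 0 reads in all 5 libraries. With Setdb1 knockdown Il4ra, the interleukin 4 receptor chain that recruits myoblasts to growing fibres, had a log2 ratio of 1.13 (214 against 34 reads), and Nfatc2, the transcription factor upstream of interleukin 4 in myotubes, had -1.25. Neither passed the limit against the expression-vector control, at 0.93 and -0.72, and between the controls they were at -0.20 and 0.53. Over all genes 9.34% were higher and 10.3% lower with Setdb1 knockdown. With Pparg expression none was called (all genes 4.22% higher and 2.30% lower). Against the other control 1 was higher, where 709 of 12842 genes were.

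Fusion genes of other cell types were examined as a comparison list. None of 8 genes of osteoclast, placental and gamete fusion reached an FPKM of 1, and their summed FPKM was between 0.0714 and 0.192. Lists of markers of other cell types were summed as well. The 6 macrophage markers summed to 4.78 with Myod1 expression, 1.88 with Pparg expression, 12.2 in the expression-vector control, 19.0 with Setdb1 knockdown and 3.996 in the knockdown-vector control. Cd68 made up 18.7 of the sum with Setdb1 knockdown, and Ptprc, the pan-leukocyte gene, had at most 2 reads in any library. The summed FPKM of 6 endothelial markers was at most 0.618, and that of 6 fibroblast markers at most 2.52. The summed FPKM of 5 podocyte markers was between 10.4 and 16.3, nearly all from Synpo. Of the neuron list, 36.4 to 202 in sum, nearly all was Tubb3, and Snap25 was at 0 throughout. Summed FPKM of the adipocyte list was 301 with Pparg expression and at most 0.211 elsewhere.

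The genes whose levels over the 5 libraries were nearest to those of each called gene were found by the Euclidean distance of log2(FPKM + 1) among 10888 protein-coding genes. Nearest to Mymk were Mybph, at a distance of 0.21, Tnni2 at 0.29 and Ckm at 0.48. Nearest to Mymx were Tnni2 at 0.25, Chrng at 0.26 and Tnnt2 at 0.31, and nearest to Cdh15 were Cox8b at 0.26, Itgb1bp2 at 0.27 and Trim72 at 0.35. These include troponins, creatine kinase and an acetylcholine receptor subunit, genes of contractile muscle and its synapse. Nearest to Jam2 were Sh2b2 at 0.37, Flnc at 0.51 and Perm1 at 0.61. Jam3 lay nearest to Ankrd10 at 0.37, Cry1 at 0.43 and Fam53a at 0.53. Dock1 lay nearest to Bptf at 0.22, Prodh at 0.30 and Polr3a at 0.31, and Dock5 to Tfap4 at 0.16, Rngtt at 0.18 and Manea at 0.22. With 5 libraries, and a distance set mainly by the Myod1 expression library for the first 4 genes, these are descriptions only.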

How the data were processed

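The authors deposited 1 table of FPKM values for 5 libraries of total RNA, extracted with TRIzol and prepared with the NEBNext Ultra RNA kit per the labels' protocols. Per the submitters' processing notes CASAVA, HISAT2 and featureCounts 1.5.0-p3 were used with GRCm38. Strand, shared reads and the scaling are not given in the sources used here. FPKM times gene length gave whole multiples of 1 step within 0.01 for 100% of values, from which reads were recovered. The FPKM divisor was 0.859, 1.10, 0.976, 1.06 and 1.03 times the reads of the Myod1 expression, Pparg expression, expression-vector control, Setdb1 knockdown and knockdown-vector control libraries, so the values were already scaled between libraries. The column of the Myod1 expression library summed to 420545, and the others to between 297582 and 326960. Positions are the table's, and 98.3% of identifiers shared with GENCODE M21 had the same position.

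Log2 ratios used a pseudocount of 1, a 2-fold limit and only genes that reached an FPKM of 1 somewhere. Intervals are at 95%, by Wilson's method for a level (from its share of all reads) exact binomial for a ratio. Folds against a library without a read of the gene are against 3 reads. The calculation was tested on simulated data, with changes larger than the 2-fold limit in well-expressed genes only. It does not cover calls near the limit or genes of low level. The 10 genes and 19 lists (195 entries) were chosen with earlier results of these data known. Genes named from a list are the up to 6 with the largest ratio past the limit, and the 3 nearest patterns are given for each called gene. Igsf5, with 2 rows, and Amica1, with none, were not used, and some further list genes are not reported here. Python 3.11.15, numpy 2.4.6, pandas 2.3.3 and scipy 1.17.1 were used. Alternatives were another pseudocount, filter, limit, scaling or control, and values under 3 reads set to 3 reads.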

Additional observations from a re-analysis of the deposited data

How the results depend on the processing

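None of the 10 genes called in a comparison had a ratio of the other sign under any alternative run. The balance of calls with Myod1 expression did turn after division by the column sum: the share of called genes that were higher went from 65.0% to 39.4% over all genes, and the 4 pathway lists from 9 higher and 7 lower to 7 and 13. Of 144 ratios of single genes under the alternatives that can move one (pseudocount, scaling, control or the 3-read setting), 113 moved by less than their counting error, or less than 0.5 where a library had 0 reads, and 31 by more. The number of the 10 genes called with Myod1 expression was 6 as reported and 4 to 7 under alternatives: 4 with a 4-fold limit or the other control, and 7, with Cdh2 lower, after division by the column sum or scaling to the 75th percentile. Centring on the median left it at 6. With Pparg expression it went from 0 to 1 (Jam2, lower) with a pseudocount of 0.1 and with values under 3 reads set to 3 reads. With Setdb1 knockdown it went from 2 to 0 with a 4-fold limit, and to 3 with a pseudocount of 0.1 (Mymx, 2 reads) or the other control (Jam3). Counts over all genes were 2768, 837 and 2526 for Myod1, Pparg and Setdb1, and 608, 114 and 310 with a 4-fold limit. A pseudocount of 0.1 gave 1729 for Pparg and 4027 for Setdb1, and the 3-read setting gave 1617 and 4015. No paired analysis was possible because each group had 1 library and the labels carry no replicate numbers. Depth limits Nphs1, Adgrb1 and the low values of Jam2, Cdh15 and Mymx, where a few reads set the ratio.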
